A study of Mus musculus with 2 samples.

Results

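The 35 genes described here make, sense, take up, export, esterify and hydroxylate cholesterol, and they were taken by name from the gene tables, where all 35 had a row among 55536 genes. Of these, 18 encode enzymes of cholesterol synthesis, 7 encode sterol sensors and their partners, 3 encode receptors that take up lipoproteins, 2 move cholesterol out of lysosomes, 3 export it, 1 esterifies it and 1 hydroxylates it. They have 241 transcripts among 141862. Polyadenylated RNA was sequenced from mouse hippocampus, the brain region of memory formation, at 6 months of age, in C57BL/6 animals of the strain B6NCrl, with no treatment named in the labels. The description gives a male donor and another gives sex as not collected. The series holds 1 group of 2 libraries, labelled biological replicates 1 and 2, each from 20 ng of RNA. The labels give separate tissue samples under 1 shared donor identifier and do not say whether these came from separate animals, so all spreads below measure these 2 samples and may be technical. There was no second condition, so what can be read is each gene's level, how far the pair of libraries lie apart, and how far 2 programs that quantified the same reads differ.

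Little lipoprotein cholesterol crosses from blood into brain, so nearly all brain cholesterol is made in place, from acetyl-CoA through mevalonate, farnesyl diphosphate and squalene to lanosterol and then to cholesterol. SREBP transcription factors, held in the endoplasmic reticulum by SCAP and INSIG proteins while sterol is plentiful, switch on the enzymes of synthesis when sterol is scarce, through sterol regulatory elements that often lie near binding sites of the factor NF-Y. Liver X receptors respond to oxidised sterols and raise the exporters. Astrocytes load cholesterol onto apolipoprotein E, neurons take it up through receptors of the LDL receptor family, and neurons remove an excess by hydroxylation, which lets the sterol leave the brain.

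The sequences that bear on the results are promoters, read with 250 bases before and 50 after the start site, and a pair of coding exons. The RefSeq table of build GRCm38.p6 held promoters for 29 of the 35 genes, and those of Fdps, Fdft1, Sqle, Abcg1, Abcg4 and Npc1 are named only. The promoter of Hmgcs1 is shown because Hmgcs1 was the only one of the 29 genes whose window held the letters TCACNCCAC, a sterol regulatory element consensus, that of Mvk because it held 5 copies of CCAAT, the core of the NF-Y site, and 2 of the 3 listed for Srebf1 because transcripts from both starts had reads. Capitals mark TCACNCCAC and CCAAT in either strand (ATTGG is CCAAT on the other strand).
Hmgcs1, chr13:119690101-119690400, plus strand: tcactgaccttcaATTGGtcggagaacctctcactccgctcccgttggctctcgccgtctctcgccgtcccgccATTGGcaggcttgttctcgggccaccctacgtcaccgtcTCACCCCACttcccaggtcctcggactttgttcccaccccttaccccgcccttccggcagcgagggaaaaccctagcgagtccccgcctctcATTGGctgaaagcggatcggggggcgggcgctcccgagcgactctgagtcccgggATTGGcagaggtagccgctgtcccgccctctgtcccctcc
Mvk, chr5:114444019-114444318, plus strand: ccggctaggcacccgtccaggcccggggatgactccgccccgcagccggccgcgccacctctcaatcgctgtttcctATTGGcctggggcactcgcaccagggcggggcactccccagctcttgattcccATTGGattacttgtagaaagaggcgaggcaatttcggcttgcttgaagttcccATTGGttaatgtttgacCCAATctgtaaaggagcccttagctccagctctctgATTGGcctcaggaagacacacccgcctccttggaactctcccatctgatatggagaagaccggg
Srebf1, upstream start, chr11:60220578-60220877, minus strand: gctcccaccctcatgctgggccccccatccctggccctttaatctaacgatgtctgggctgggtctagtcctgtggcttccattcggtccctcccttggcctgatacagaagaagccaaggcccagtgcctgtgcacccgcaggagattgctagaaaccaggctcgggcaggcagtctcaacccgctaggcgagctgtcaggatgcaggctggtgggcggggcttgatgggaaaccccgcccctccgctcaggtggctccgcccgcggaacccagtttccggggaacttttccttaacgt
Srebf1, downstream start, chr11:60210422-60210721, minus strand: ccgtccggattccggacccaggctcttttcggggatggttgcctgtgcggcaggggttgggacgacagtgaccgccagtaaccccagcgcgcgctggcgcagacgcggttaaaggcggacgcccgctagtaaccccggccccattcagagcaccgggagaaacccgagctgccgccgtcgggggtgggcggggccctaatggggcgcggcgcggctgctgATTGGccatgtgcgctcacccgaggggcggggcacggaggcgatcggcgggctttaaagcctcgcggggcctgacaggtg

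With the start site as position 1, the TCACCCCAC of Hmgcs1 begins at -137 and its 4 CCAAT copies at -237, -176, -45 and 11. In Mvk the copies begin at -173, -120, -67, -50 and -14, and the most distant 3 are spaced by 53 bases. Over all 32851 promoters of this length in the table, 1.24% held TCACNCCAC and 37.4% held CCAAT on either strand, and 41.1% of the 27025 gene symbols had CCAAT in at least 1 promoter. Among the matched genes, 14 of 15 synthesis genes had CCAAT, all but Acat2, against 8 of the 14 other genes. A gene was counted if any of its listed promoters held the motif. The only CCAAT of Pmvk lay in the window at chr3:89454291-89454590, which holds the start of Pmvk-204, at 0 counts in the first program. Pmvk-201, with 99.7% of TPM in both libraries, begins at 89459118, outside that window. Another motif, GGGCGG, the GC box, was in 35.7% of all promoters and 38.2% of symbols, in 14 of the 15 synthesis genes and in 11 of the 14 others. All 3 motifs were searched on both strands. A match of letters is a description of the window, not of binding. The upstream Srebf1 window printed held neither TCACNCCAC nor CCAAT, and the downstream window held 1 CCAAT at -30.

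The other printed sequences are coding exons 4 and 16 of Vldlr, a lipoprotein receptor, on the plus strand of chromosome 19 in mm10, shown because the 2 leading coding forms differ in exactly these exons. Exon 4 encodes a ligand-binding repeat and exon 16 the serine- and threonine-rich stretch that carries sugars.
Vldlr exon 4, chr19:27236240-27236362: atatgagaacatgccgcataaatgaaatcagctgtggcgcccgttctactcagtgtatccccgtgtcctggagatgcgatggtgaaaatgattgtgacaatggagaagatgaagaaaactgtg
Vldlr exon 16, chr19:27246593-27246676: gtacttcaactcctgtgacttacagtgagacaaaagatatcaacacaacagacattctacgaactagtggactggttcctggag

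All 35 genes were on in this tissue. Each reached at least 1 TPM (a share of all transcripts, corrected for length, so that genes can be compared) in both libraries, as did 56.7% of the 22028 protein-coding genes. The lowest read support was 132 expected counts, for Nr1h3 in replicate 1. The 35 genes summed to 1387 TPM in replicate 1 and 1287 TPM in replicate 2, and took 0.267% and 0.242% of the assigned reads. Their median of 24.6 TPM stood beside a median of 13.2 TPM over the 12480 protein-coding genes at 1 TPM or more in both libraries, and 26 of the 35 lay above that value. The range ran from 146 TPM for Msmo1 to 1.79 TPM for Abca1, a span of 81.7 times. Of the 34 pairs of neighbours in the order of levels, 13 did not overlap between their 2 libraries and 21 did. With 2 values per gene, a lack of overlap alone does not make the order of a pair firm. The order also depended on the transcripts counted, as given below.

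**Figure D1:**
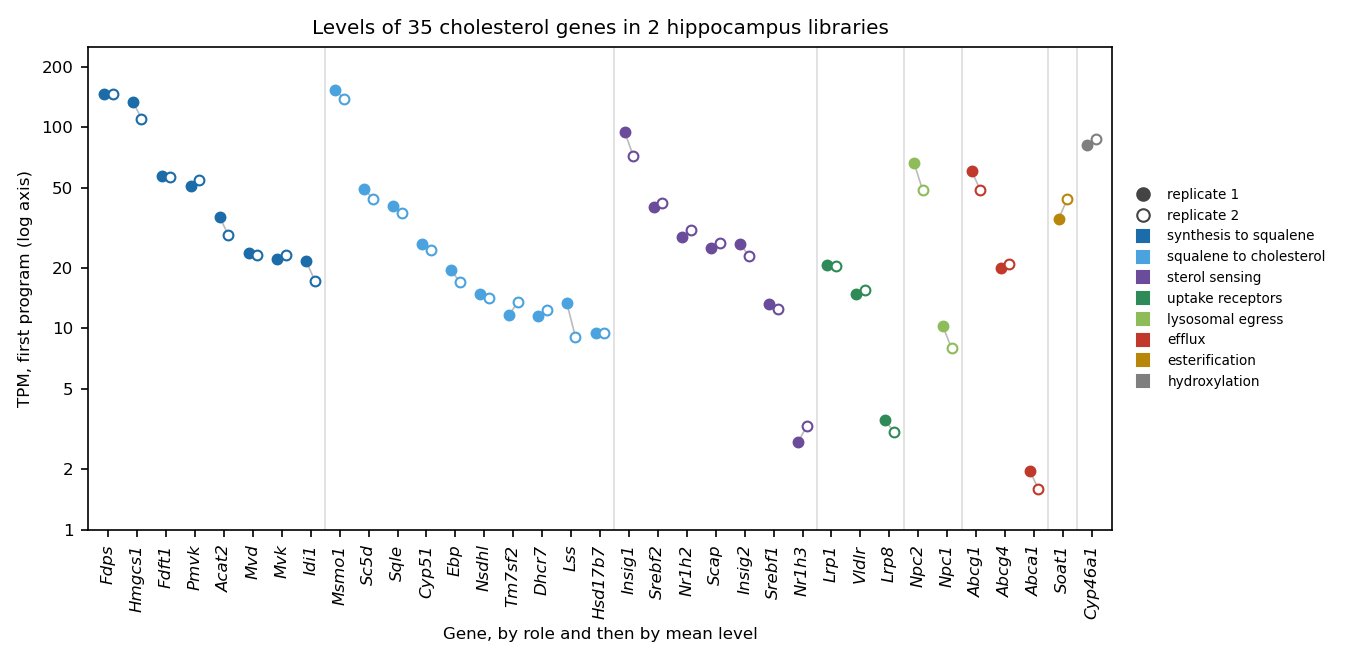
Level of each gene in TPM on a log axis, with genes grouped by role and ordered by mean level within a role. Filled points are replicate 1 and open points replicate 2. The enzymes Msmo1, Fdps and Hmgcs1 sit above 100 TPM in both libraries, and Abca1, Nr1h3 and Lrp8 sit below 5 TPM.

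The enzymes from acetyl-CoA to squalene were the higher of the pair of synthesis groups, with a median of 42.6 TPM over 8 genes against 16.4 TPM over the 10 enzymes from squalene to cholesterol, although single genes of the groups overlapped widely. Fdps, which makes farnesyl diphosphate, the branch point towards sterols, dolichol and prenylated proteins, had 146 TPM in both replicate 1 and replicate 2. Hmgcs1, the cytosolic HMG-CoA synthase (chr13:119690379-119708260, plus strand, mm10), had 134 TPM in replicate 1 and 110 TPM in replicate 2. Fdft1, the squalene synthase that commits farnesyl diphosphate to sterols, followed with 56.9 and 56.7 TPM. Both values of Fdps lay above both of Hmgcs1, and these above both of Fdft1. Pmvk, the phosphomevalonate kinase, had 51.0 and 54.5 TPM, and Acat2, the cytosolic thiolase that condenses acetyl-CoA, had 35.9 and 29.1 TPM.
The remaining enzymes of this stretch were lower and close together. Mvd, the mevalonate diphosphate decarboxylase, had 23.8 TPM in replicate 1 and 23.2 TPM in replicate 2, Mvk, the mevalonate kinase, had 22.2 and 23.3 TPM, and Idi1, the isomerase of isopentenyl diphosphate, had 21.5 and 17.1 TPM. The values of Mvd and Mvk overlapped. Idi1 was thus the lowest of the 8, at a mean of 19.3 ± 3.1 TPM (SD, n = 2), and Fdps the highest, 7.54 times higher.

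From squalene onwards a single enzyme stood far above the rest. Msmo1, the methylsterol monooxygenase that acts after Cyp51 on the remaining surplus methyl groups (chr8:64718139-64733792, minus strand, mm10), had 153 TPM in replicate 1 and 138 TPM in replicate 2. Its range enclosed both values of Fdps, so which of the pair was higher cannot be said. Sc5d, a sterol desaturase, had 49.4 and 44.1 TPM, and Sqle, the oxygen-dependent squalene epoxidase, had 40.6 and 37.4 TPM. Cyp51, which demethylates lanosterol, followed with 26.3 and 24.6 TPM, and Ebp, the sterol isomerase, with 19.5 and 17.0 TPM.
The lower enzymes of this stretch lay between 9 and 15 TPM. Nsdhl, a dehydrogenase of the demethylation complex, had 14.8 TPM in replicate 1 and 14.1 TPM in replicate 2, and Tm7sf2, a sterol reductase, had 11.6 and 13.5 TPM. Dhcr7, a reductase of the last steps, had 11.5 and 12.4 TPM. Lss, which closes squalene epoxide into lanosterol, had 13.4 and 9.08 TPM, and Hsd17b7, the ketosteroid reductase that works with Nsdhl and Msmo1, had 9.52 and 9.48 TPM. In the order of levels Tm7sf2, Dhcr7, Lss and Hsd17b7 each overlapped the next, so neighbours among them cannot be ordered. Of the enzymes of this demethylation, Msmo1 exceeded Hsd17b7 by 16.1 times in replicate 1 and 14.6 times in replicate 2. Of the 18 synthesis genes, 14 lay above the median of expressed protein-coding genes.

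Among the sterol sensors, Insig1, which retains SCAP when sterol is high, was the highest, at 94.9 TPM in replicate 1 and 72.0 TPM in replicate 2. Its relative Insig2 had 26.3 and 22.8 TPM. Srebf2, the SREBP gene that acts mainly on cholesterol synthesis, had 40.2 and 41.8 TPM, and Srebf1, which acts mainly on fatty acid synthesis, had 13.3 and 12.5 TPM. Scap, the escort that carries SREBP proteins to the Golgi, had 25.2 and 26.7 TPM. Of the related pairs of sensors, the liver X receptors lay farthest apart. Nr1h2, which encodes the beta form, had 28.3 and 30.7 TPM, and Nr1h3, the alpha form, had 2.73 and 3.29 TPM.

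The uptake receptors were of modest level by gene row. Lrp1, a very large receptor for apolipoprotein E and many other ligands (chr10:127538161-127621148, minus strand, mm10), had 20.6 TPM in replicate 1 and 20.5 TPM in replicate 2. Vldlr had 14.9 and 15.5 TPM, and Lrp8, which like Vldlr also receives reelin, had 3.52 and 3.07 TPM. No 2 of the 3 receptors overlapped in their values. These gene rows depended on the transcripts counted, and complete coding transcripts alone gave a median of 8.11 TPM for the 3 genes, against 15.2 TPM with all transcripts.

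Npc2, the small soluble protein that hands cholesterol to NPC1 inside the lysosome, had 66.7 TPM in replicate 1 and 48.8 TPM in replicate 2. Npc1, the membrane protein that passes it on, had 10.3 and 7.97 TPM. Among the exporters, Abcg1 had 60.3 and 48.6 TPM, and Abcg4, its close relative, had 20.0 and 20.9 TPM. Abca1, which loads lipid-poor apolipoproteins, had 1.97 and 1.60 TPM and was the lowest of the 35. Soat1, which stores cholesterol as ester, had 34.9 and 43.9 TPM. Cyp46a1, the neuronal enzyme that hydroxylates cholesterol for removal from brain (chr12:108334381-108362234, plus strand, mm10), had 81.4 TPM in replicate 1 and 86.8 TPM in replicate 2. It ranked number 4 of the 35, its 2 values lay within those of Insig1, and 86.6% of the protein-coding genes at 1 TPM or more were lower. Cyp46a1 stood above Soat1 by 2.33 times in replicate 1 and 1.98 times in replicate 2. In bulk tissue, fewer cells of a type and less RNA per cell cannot be told apart in any of these levels.

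Each family had the same leading gene in both libraries. Nr1h2 made up 91.2% of the liver X receptor TPM in replicate 1 and 90.3% in replicate 2. Npc2 held 86.6% and 86.0% of the sum with Npc1, Insig1 78.3% and 75.9% of the INSIG sum, and Srebf2 75.1% and 77.0% of the SREBP sum. Abcg1 held 73.3% and 68.3% of the 3 exporters, Abcg4 24.3% and 29.4%, and Abca1 2.39% and 2.25%. Lrp1 held 52.8% and 52.4% of the 3 receptors, Vldlr 38.2% and 39.7%, and Lrp8 9.02% and 7.86%. The leading genes were also the same by expected counts and in the second program. Expected counts are not divided by length, which favours long transcripts such as that of Lrp1. By complete coding transcripts alone, Vldlr led the receptors in both libraries, at a mean of 11.4 TPM against 8.11 TPM for Lrp1. The other families kept their leading gene by that measure.

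**Figure D2:**
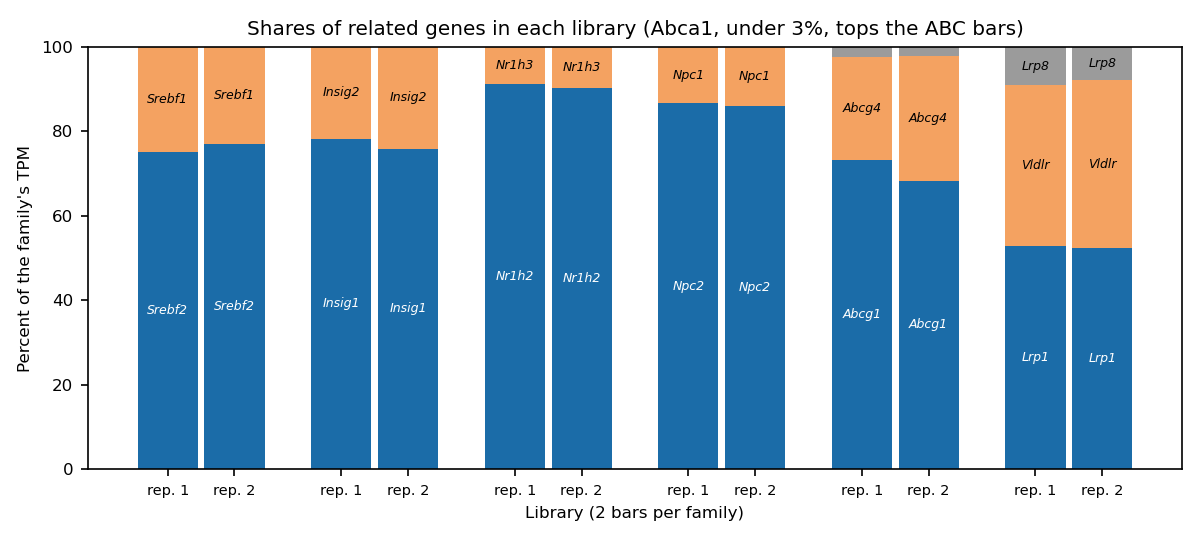
Share of each related gene in the summed TPM of its family, in percent, with replicate 1 left of replicate 2 for each family. The leading gene is the same in both libraries in all 6 families, and the widest shifts are those of Abcg4, 24.3% in replicate 1 and 29.4% in replicate 2, and Abcg1, 73.3% and 68.3%.

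A list of 25 further genes of the pathway set these levels in context. Of these, 20 reached 1 TPM in both libraries, and the median was 12.6 TPM. Apoe, the main apolipoprotein of brain, had 7712 TPM in replicate 1 and 7659 TPM in replicate 2. Clu and Apod, other apolipoproteins, had 423 and 431 TPM and 253 and 218 TPM. Nceh1, which splits cholesterol esters, had 89.9 and 77.5 TPM, and Gramd1a, which moves cholesterol from the plasma membrane to the endoplasmic reticulum, had 38.9 and 43.8 TPM. At the low end were Soat2, the esterifying enzyme of liver and gut, with 2 reads in replicate 1 and 0 in replicate 2, Lrp2 with 0.13 and 0.05 TPM, and Ch25h, another cholesterol hydroxylase, with 0.45 and 0.32 TPM. The other hydroxylases of the list were also below Cyp46a1. Cyp27a1 had 2.36 TPM in replicate 1 and 2.78 TPM in replicate 2, and Cyp7b1 had 14.9 and 14.7 TPM. Cyp39a1, which acts on the product of Cyp46a1, had 1.02 and 0.28 TPM on 75 and 19 counts, under the count minimum of the test between libraries.

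The libraries were close in these genes. For each of 14080 genes with a mean of at least 50 expected counts, the split of its counts over the pair of libraries was set against their TMM-scaled sizes in an exact binomial test, two-sided, with Benjamini-Hochberg adjustment over all these genes. The exact test covers counting error only and compares 2 libraries, not conditions. Of the 35 genes, 0 passed both an adjusted p of 0.05 and a size of 1 on the log2 scale in either direction, where 1.97% of all genes tested were called higher in replicate 1 and 0.433% higher in replicate 2. At an adjusted p under 0.05 and any size, 15 of 35 were higher in replicate 1, against 23.6% of all genes tested, and 4 of 35 were higher in replicate 2, against 23.6% of all genes tested. Ratios of the 35 genes had a median of 0.07 (log2, replicate 1 over replicate 2), against -0.01 over all genes tested, and a median size of 0.13, against 0.16.

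The largest ratio belonged to Npc2, with 6387 counts in replicate 1 and 4783 in replicate 2, a log2 ratio of 0.42 (95% counting interval 0.37 to 0.48, adjusted p = 2.02e-52, exact test). Insig1 had 7358 and 5692 counts and a log2 ratio of 0.38 (interval 0.33 to 0.43). Lrp8 and Hsd17b7 came next, each at 0.32, with wider intervals of 0.15 to 0.50 and 0.18 to 0.46 on their lower counts. Idi1, Abcg1, Abca1, Hmgcs1 and Acat2 lay between 0.26 and 0.31. The remaining 6 genes higher in replicate 1, Lss, Soat1, Sc5d, Msmo1, Cyp51 and Sqle, lay between 0.09 and 0.21. Thus 9 of the 15 were synthesis enzymes, the others being Insig1, Lrp8, Npc2, Abcg1, Abca1 and Soat1. From TPM with a pseudocount of 0.1, the ratios of Hsd17b7 and Lrp8 were smaller, at 0.01 and 0.19, that of Lss was larger, at 0.56, and that of Soat1 was -0.33. The Sqle call was lost in the second program, at an adjusted p of 0.0935 in the exact test.
The 4 genes called higher in replicate 2 were Tm7sf2, with 431 counts in replicate 1 and 512 in replicate 2, a log2 ratio of -0.24 (interval -0.43 to -0.06), Pmvk at -0.13, Cyp46a1 at -0.12 and Fdft1 at -0.10. The Pmvk call was lost with unscaled library totals, at an adjusted p of 0.05004 in the exact test, and Fdft1 had a ratio of 0.0033 from TPM. The other 16 genes did not pass in this setting, though some did under other scalings or in the second program, as given at the end. Ratios of Srebf1, Srebf2, Scap and Insig2 were between -0.07 and 0.07, and those of Fdps, Lrp1 and Vldlr between -0.05 and -0.03. Mvd and Nsdhl lay at 0.01 and 0.04, Npc1 and Ebp at 0.14 and 0.15, and Abcg4, Dhcr7, Mvk and Nr1h2 between -0.11 and -0.09. Nr1h3, with 132 counts in replicate 1 and 154 in replicate 2, had a log2 ratio of -0.21 with an interval of -0.55 to 0.12. The spread between the libraries over all genes, a biological coefficient of variation of 16.6% from edgeR over 16640 genes, was also tried as common dispersion. With it, edgeR's exact test called 174 of the 14080 genes and 0 of the 35, at an adjusted p of 1 for each and with 0 of them at an unadjusted p under 0.05. This dispersion came from the same 2 libraries taken as 1 group, so differences between them already counted as spread. Ratios as small as these could hardly pass, and no conclusion is drawn from this test.

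**Figure D3:**
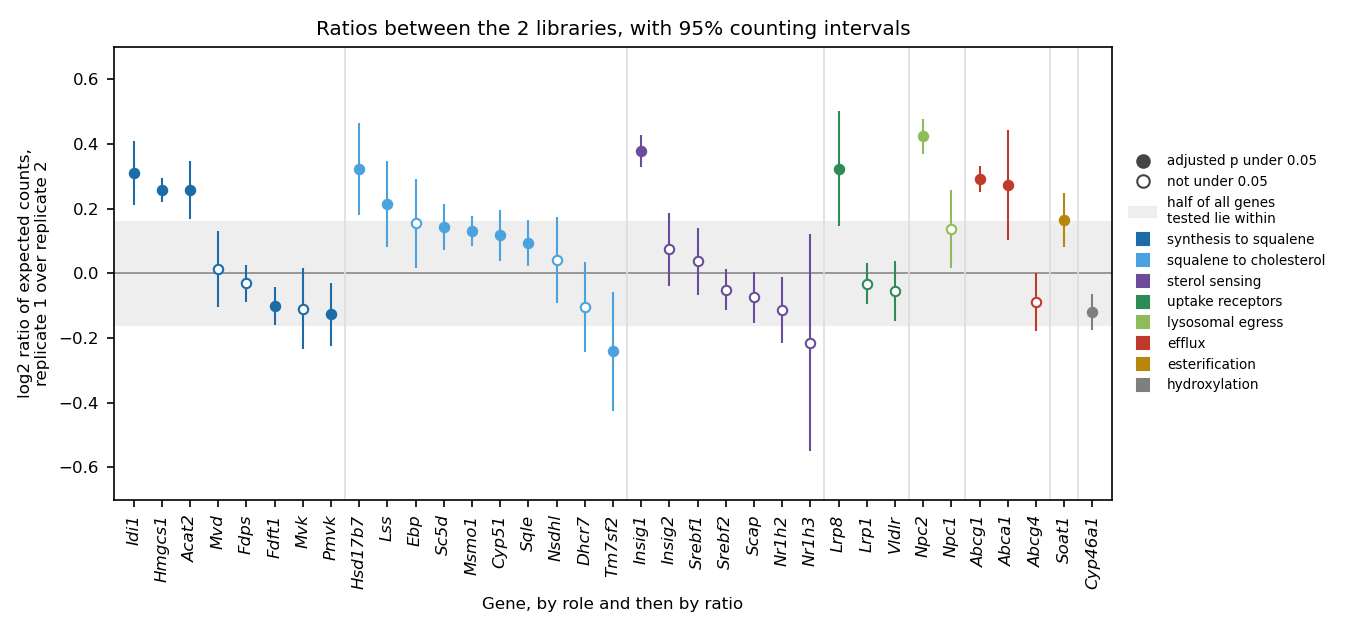
Log2 ratio of expected counts, replicate 1 over replicate 2, for each gene by role, with 95% counting intervals as bars. Filled points have an adjusted p under 0.05 in the exact test, and the grey band holds the middle of all 14080 genes tested, up to 0.16 in size. All points lie between -0.24 for Tm7sf2 and 0.42 for Npc2.

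The libraries also differed in markers of tissue next to the hippocampus. Every listed marker of hippocampal neurons, astrocytes, oligodendrocytes, microglia and endothelium reached 1 TPM in both libraries. All 8 choroid plexus markers were higher in replicate 1, summing to 15288 TPM against 134 TPM in replicate 2, of which Ttr had 14956 and 117 TPM. Of the 5 meningeal markers, 4 were higher in replicate 2 and 1, Igf2, in replicate 1, at 15.9 and 4.94 TPM. The meningeal sums of 2002 and 4652 TPM rested mostly on Ptgds, at 1907 and 4555 TPM. Excitatory neuron markers were higher in replicate 2 in 5 of 5 cases, at 2075 TPM in replicate 1 against 2445 TPM in replicate 2, as were endothelial markers in 5 of 5, at 223 and 279 TPM. Oligodendrocyte markers summed to 3607 TPM in replicate 1 and 3986 TPM in replicate 2, with 3 of 6 higher in replicate 1. Microglia markers summed to 596 and 624 TPM, with 1 of 6 higher in replicate 1. Interneuron markers summed to 653 and 640 TPM, with 4 of 5 higher in replicate 1. Of the astrocyte markers, 5 of 6 were higher in replicate 1, with a median of 152 TPM against 132 TPM in replicate 2. Their sums, 1931 and 1910 TPM, rested mostly on the remaining marker Aldoc, at 1291 and 1357 TPM. The part of these cells in the ratios of Npc2, Insig1, Abcg1 and the synthesis enzymes was not tested.
Of the 20 tested genes of the pathway list, 4 were higher in replicate 1 at an adjusted p under 0.05 in the exact test and 7 were higher in replicate 2, against 23.6% of all genes tested in each direction. Lbr, a sterol reductase of the inner nuclear membrane, had 641 counts in replicate 1 and 398 in replicate 2 (log2 ratio 0.69), and Apod, Osbpl2 and Nceh1 lay between 0.13 and 0.19. Gramd1b, a relative of Gramd1a, had 2034 and 2713 counts (log2 ratio -0.41), and Scarb1, Dhdds, Gramd1a and Stard3 lay between -0.30 and -0.13. Apoe at -0.02 and Clu at -0.05 were the smallest ratios to pass, on 209377 and 20367 counts in replicate 1.

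At the level of transcripts, most of these genes had most of their TPM in complete coding transcripts. The same shares over all genes were not computed. Complete coding transcripts held a median of 90.6% of a gene's TPM over the 35 genes and 97.6% of its expected counts, and they held over 90% of TPM in 20 genes. In 11 genes a single transcript held over 90% of TPM in both libraries, namely the transcripts numbered 201 of Insig1, Npc2, Cyp46a1, Abca1, Abcg1, Fdps, Idi1, Mvd, Nsdhl, Pmvk and Sqle. By contrast, 5 genes had under 60% of TPM in complete coding transcripts, namely Lrp8, Lrp1, Soat1, Srebf2 and Lss. TPM is divided by length, so a short transcript with few reads can weigh as much in TPM as a long one with many.

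**Figure D4:**
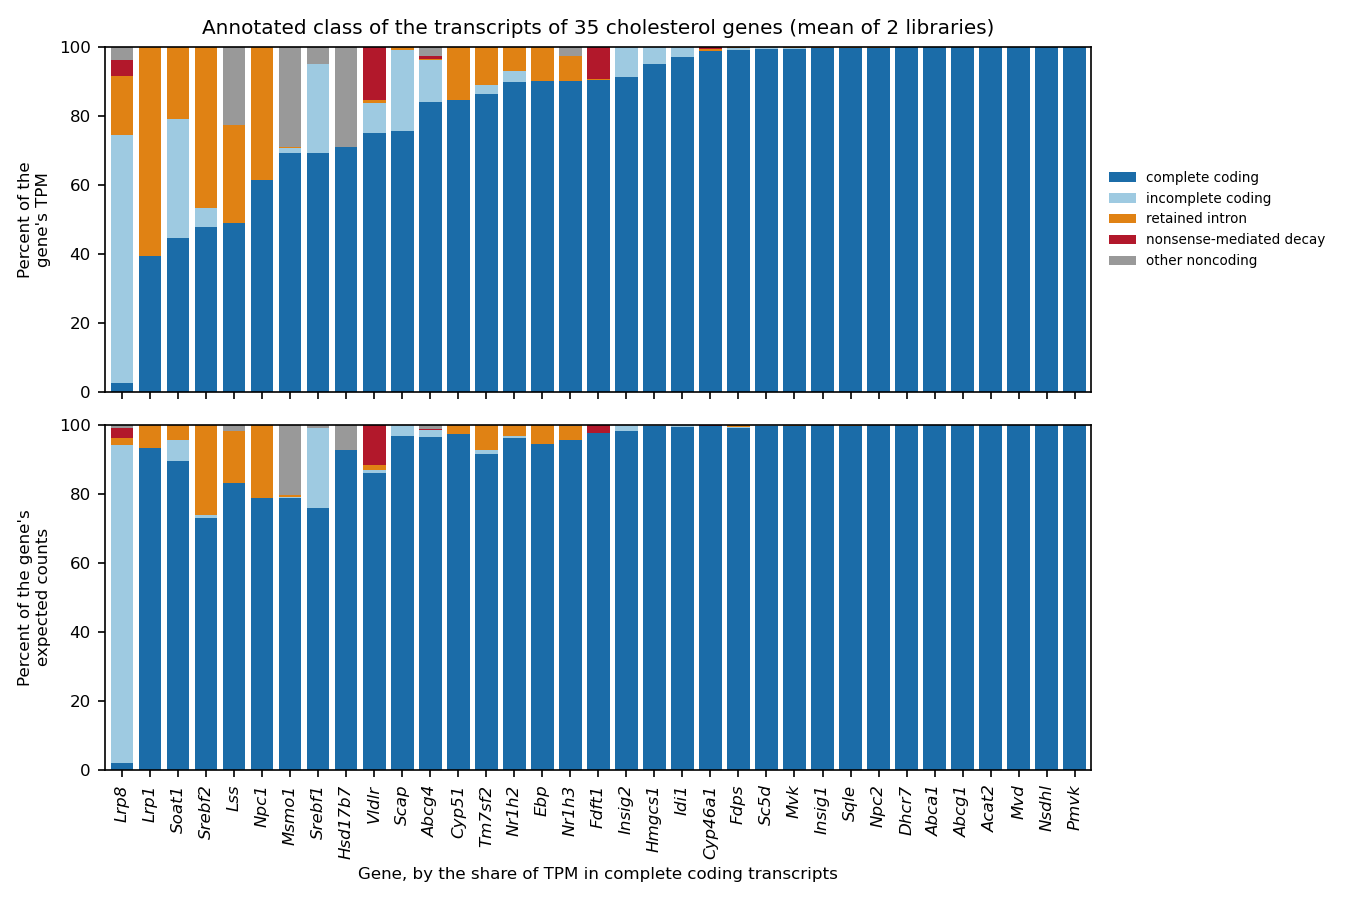
Share of each annotated transcript class in a gene's TPM (upper panel) and expected counts (lower panel), in percent, as the mean of the 2 libraries, with genes ordered by the share of TPM in complete coding transcripts. Lrp1 shows the widest gap between the panels, with 39.5% of TPM but 93.3% of counts in its complete coding transcript.

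Lrp1 was the extreme case. Its leading transcript by TPM in both libraries and both programs was Lrp1-208, a retained-intron transcript of 763 bases at the 3′ end of the gene (chr10:127538599-127539597), with 57.8% of TPM in replicate 1 and 59.6% in replicate 2. These shares rested on 222 of 3887 counts in replicate 1 and 236 of 3994 in replicate 2. The coding transcript Lrp1-201, of 14888 bases and 4545 residues, held 38.8% and 40.1% of TPM but 92.5% and 94.1% of counts, and its own level averaged 8.11 TPM. The retained-intron Lrp1-204 had 70.1 counts in replicate 1 and 0 in replicate 2. Lrp1 ranked number 21 of the 35 genes by all transcripts and number 29 by complete coding transcripts.

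Srebf2 and Soat1 showed the same kind of gap. The retained-intron transcript Srebf2-205 (chr15:82147251-82173894, 1981 bases), which begins at the 5′ end of the gene and ends well before its 3′ end, held 45.0% of TPM in replicate 1 and 44.9% in replicate 2, with 1009 and 1071 counts, beside 48.5% and 46.8% for the coding Srebf2-201. Soat1 had 2 short 5′ transcripts, the incomplete Soat1-206 of 366 bases with 22.4% and 31.5% of TPM and the retained-intron Soat1-203 of 509 bases with 17.6% and 22.2%. Both were higher in replicate 2 in TPM, while the long coding Soat1-207 of 8371 bases had 1051 counts in replicate 1 and 587 in replicate 2. Soat1 as a gene had the lower TPM but the higher counts in replicate 1, with 2376 counts in replicate 1 and 2130 in replicate 2. From complete coding transcripts, Soat1 had 17.8 and 16.8 TPM.
Lss split among short noncoding pieces that differed between the libraries. Its retained-intron transcript Lss-205, of 425 bases, had 31.2% of TPM on 34.9 counts in replicate 1 and 10.7% on 8.53 counts in replicate 2, the noncoding Lss-202 had 17.2% and 28.2%, and the complete coding transcript alone gave 5.75 and 5.03 TPM. In Msmo1, the noncoding Msmo1-206, of 1329 bases, held 27.7% and 29.5% of TPM on 1527 and 1503 counts, which left 107 TPM in replicate 1 and 94.7 TPM in replicate 2 for the coding Msmo1-201, below Fdps in both libraries. In the second program Msmo1-206 had 13.7% and 11.6%.

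The transcripts of Npc1 differed between libraries and programs. Its retained-intron transcript at the 3′ end, Npc1-206, held 47.2% of TPM in replicate 1 and 28.6% in replicate 2 with the first program, and 35.3% and 0% with the second program. The intervals deposited beside its TPM, whose level is not given in the sources used here, were 3.81 to 5.46 in replicate 1 and 1.54 to 2.92 in replicate 2 and did not overlap. The coding Npc1-201 was steadier, at 5.33 TPM in replicate 1 and 5.68 TPM in replicate 2.

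Where several coding forms exist, the data gave their mix. Of the complete coding TPM of Vldlr, the form of 804 residues without the exons 4 and 16 printed above (Vldlr-202) held 67.4 ± 3.0% and the form of 873 residues with both (Vldlr-207) 32.6 ± 3.0% (SD, n = 2). By counts the order turned, with 758 and 713 counts for Vldlr-202 and 835 and 953 for Vldlr-207, whose annotation runs 4369 bases past the end of every other Vldlr transcript. Another transcript, Vldlr-201, annotated for nonsense-mediated decay, held 15.3 ± 0.4% of TPM. In Lrp8 nearly all reads went to Lrp8-202, with 535 of 569 counts in replicate 1 and 412 of 457 in replicate 2. Lrp8-202 is annotated without a start and without the coding exons of 381 and 177 bases found in the full form Lrp8-201, the second of which (chr4:107870012-107870188) encodes the cytoplasmic insert of 59 residues. Lrp8-202 also runs 2673 bases past every other Lrp8 transcript, so reads in that end bear on its share and the use of these exons cannot be read from it.

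Srebf1 had reads assigned to transcripts from both printed starts. Srebf1-201, of 1134 residues, begins at position 60220604 and held 64.5% of TPM in replicate 1 and 74.2% in replicate 2. Srebf1-207, which begins 10139 bases downstream and is annotated as incomplete, held 17.8% and 12.3%, and in the second program 25.3% and 24.6%. Srebf1-203, which begins farther downstream, held 12.6% and 8.73%. In mouse the upstream start gives the longer activation domain and the downstream start is the one known for its response to insulin and liver X receptors. Of the complete coding TPM of Nr1h2, forms of 446 residues held 55.4% in replicate 1 and 58.5% in replicate 2, and forms of 443 residues the rest. They differ in the length of 1 coding exon, 291 or 282 bases. Mvk had forms of 395 residues at 71.2 ± 0.1% and 407 residues at 20.2 ± 0.2%.
Dhcr7 had its form of 471 residues at 76.8 ± 3.7%, and Acat2 its form of 397 residues at 83.9 ± 4.0%, beside 11.2 ± 3.2% for that of 365 residues. Hsd17b7 had the widest spread of these in the first program, with its form of 334 residues at 80.2% in replicate 1 and 64.1% in replicate 2. Hmgcs1 has 1 complete coding form, in 2 transcripts that differ outside the coding sequence. Hmgcs1-201 held 57.9% of counts in replicate 1 and 47.3% in replicate 2, and Hmgcs1-202 held 41.7% and 52.2%. In the first program the difference of Hmgcs1 between the libraries lay in Hmgcs1-201, at 76.4 TPM in replicate 1 and 51.3 TPM in replicate 2, while Hmgcs1-202 had 51.4 and 52.9 TPM. In the second program both were higher in replicate 1, Hmgcs1-201 at 83.1 TPM in replicate 1 and 62.4 TPM in replicate 2 and Hmgcs1-202 at 22.7 and 19.6 TPM, and Hmgcs1-201 led in both libraries, with 71.4% and 67.9% of TPM.

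Several genes had a coding transcript that ran far past the others at its 3′ end, which weighs little in TPM and much in counts. Soat1-207 ends 5268 bases past every other Soat1 transcript, Hsd17b7-201 ends 3341 bases past and Sc5d-201 ends 3138 bases past. Sc5d-201 held 22.5% of TPM in replicate 1 and 22.7% in replicate 2, but 46.9% and 47.2% of counts, and encodes the same 299 residues as Sc5d-202. Hsd17b7-201 held 60.9% and 42.4% of TPM on 788 and 558 counts, with the noncoding Hsd17b7-204 at 24.1% and 33.9%. Of these, the long form of Soat1 differed most between the libraries, with the 1051 and 587 counts given above, while the shorter Soat1-201 had 1149 and 1257.
Further transcripts above 10% of a gene's TPM included short, incomplete and alternative coding ones. Scap-205, an incomplete coding transcript of 597 bases, held 19.8 ± 1.1% of TPM (SD, n = 2) on 2.85% of counts in replicate 1 and 2.74% in replicate 2, and the retained-intron Cyp51-204 held 13.8% and 16.0%. Fdft1-202, annotated for nonsense-mediated decay, differed between the programs, with 12.6% and 5.89% in the first program and 32.3% and 30.7% in the second. In Abcg4, Abcg4-201 and Abcg4-208, which encode the same 646 residues, held 44.4% and 41.1% of TPM in replicate 1 and 38.6% and 44.2% in replicate 2. Insig2-201 and Insig2-208, both of 225 residues, held 44.9% and 41.7% in replicate 1 and 49.8% and 42.7% in replicate 2. The 3 coding transcripts of Nr1h3 with reads encode 1 form of 445 residues.

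The programs gave the same leading gene in each family, but differed in gene levels and in transcripts. For 30 of the 35 genes the mean level moved by more than the SD of the pair of libraries. Levels by the first program exceeded those by the second in all 35 genes, by a median log2 ratio of 0.30, against 0.24 over 13238 genes at 1 TPM or more in both, and ranged from 0.02 for Insig2 to 0.46 for Npc1. The dominant transcript by TPM was the same in both programs in 32 of 35 genes in each library. The 6 exceptions were Insig2, Abcg4 and Nr1h3 in replicate 1 and Hmgcs1, Srebf2 and Soat1 in replicate 2. In Srebf2 the leading pair, Srebf2-201 and Srebf2-205, stood at 39.3% and 40.2% of TPM in that library and program. Between the libraries, the dominant transcript was the same in 33 genes with the first program and in 31 with the second.

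Some gene rows share sequence with neighbours. Exons of Fdft1 overlap those of Ctsb on the other strand over 774 bases, and Ctsb was abundant at 389 TPM in replicate 1 and 335 TPM in replicate 2. Exons of Tm7sf2 overlap 532 bases of Vps51 on the same strand, with Vps51 at 61.7 and 74.7 TPM. The sources used here do not state whether strand was used in counting, so reads in the overlap of Fdft1 and Ctsb cannot be told apart. Strand would not separate Tm7sf2 from Vps51, and the values of Fdft1 and Tm7sf2 are uncertain to that extent. Exons of Fdps overlap those of Gm43738 over 1124 bases on the same strand, with Gm43738 listed at 0 TPM in both libraries, and shorter overlaps with expressed genes touch Cyp51 (Akap9), Npc1 (Rmc1) and Srebf1 (Rai1). Expected counts were not whole, a mark of reads shared out among features, for Acat2, Hmgcs1, Idi1, Fdps, Fdft1, Lss, Cyp51, Tm7sf2, Srebf1, Scap, Insig1 and Npc1.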

How the data were processed

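The deposited gene tables hold the expected count of reads per gene, the TPM and the FPKM, and the transcript tables the expected or estimated count and TPM, per the file headers. The column layouts are those of RSEM (the first program) and kallisto (the second program). Assembly mm10 and annotation M21 are stated in text the authors deposited. The sources used here give neither program versions nor strand use. Library totals were 38921662 expected counts (replicate 1) and 39499350 (replicate 2). Rows naming no gene held 9.0 and 6.49 reads and were left out.

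The 35 genes, their groups and the pathway and marker lists were chosen with earlier results of these data known, and all 35 genes are named. Of the pathway list, the highest 5, the lowest 3 and all called genes are named, with the other hydroxylases chosen after their values were seen. The rule for transcripts was at least 10% of a gene's TPM in either program, and those not needed for a comparison are not named. Expected counts were rounded for the test. Library scaling (TMM 1.005 and 0.995) and dispersion used edgeR 4.0.16 in R 4.3.3, other steps Python 3.11.15 with scipy 1.17.1 and pandas 2.3.3. Log2 ratios used a prior count of 0.5. Ratios between programs used a TPM pseudocount of 0.1. Transcript classes and coding lengths came from M21. A coding transcript counted as complete if it had no tag for a missing start or end. The exact test was checked on simulated counts with counting error only, so that check does not bear on spread between libraries. The files name no molecular identifiers, so reads may repeat a molecule and intervals cover counting error only. Alternatives were other scalings, count minimums, prior counts, the dispersion, FPKM, the second program, and leaving out each library.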

Additional observations from a re-analysis of the deposited data

How the results depend on the processing

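With 2 libraries of 1 group, no condition can be tested, and precision rests on counting error and 1 pair. No paired analysis was possible because there is 1 group. The count of 0 genes past a log2 ratio of 1 held under every alternative run. Genes higher in replicate 1 at any size numbered 15, and 0 with the common dispersion of edgeR. Those higher in replicate 2 numbered 4, against 2 with no count minimum, 8 in the second program and 0 with the common dispersion. That dispersion was estimated from the same 2 libraries, so its counts of 0 carry little weight. The log2 ratio reversed for Fdft1 (0.00330 and 0.00324) and Soat1 (-0.33 and -0.32) from TPM with pseudocounts of 0.1 and 1, as it did for the uncalled Fdps (0.00356 and 0.00354) and Lrp1 (0.0105 and 0.0100), and in the second program for Mvd (-0.00892), Srebf1 (-0.033) and Nsdhl (-0.00436). TPM also moved Hsd17b7 (0.00601 and 0.0055), Lss (0.56 and 0.52), Npc1 (0.36 and 0.33) and Insig2 (0.21 and 0.20). Under other scalings and the second program, the calls lost were Pmvk with library totals and Sqle in the second program. Calls gained in replicate 1 were Ebp and Npc1 with library totals, and Ebp in the second program. In replicate 2, Nr1h2 was gained with scaling by relative log expression, and Nr1h2, Mvk, Abcg4 and Scap in the second program. The second program lowered group medians to 33.6 TPM (to squalene), 12.9 (squalene to cholesterol), 22.3 (sensors), 12.8 (receptors) and 17.7 (exporters). A shift in this direction was not particular to these groups. The median log2 ratio of the first program over the second was 0.24 over 13238 genes. Complete coding transcripts only, chosen after seeing the data, gave 19.7 for sensors, 8.11 for receptors and 17.2 for exporters. Leaving out 1 library gave sensors 26.3 to 26.7. Shares in families by expected counts were 73.0% (Srebf2), 83.5% (Insig1), 91.5% (Nr1h2), 83.4% (Npc2), 78.9% (Abcg1) and 62.1% (Lrp1), and in the second program 79.1%, 75.2%, 87.4% and 50.7% for Srebf2, Insig1, Npc2 and Lrp1. Genes whose dominant transcript differed between programs numbered 6, against 2 by share of counts and 3 with either library left out.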
